A study of Mus musculus with 16 samples.

Results

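Neuronal-type genes were examined in the white and brown fat of male mice that lack the glucocorticoid receptor in adipose tissue. The 10 genes were Nsg2, Nefh, Scg5, Pacsin1, Hcn3, Cacna1b, Syt13, Astn1, Cpne4 and Grpr, out of 15469 genes that could be tested, and the array carried 16 probes for them. They were selected on the size of their increase in knockout samples of this same data set. The knockout against control values of these genes are therefore given as a description, and of the members only the comparison of brown with white fat in control mice was tested. That comparison shares its control arrays with the choice of the genes.

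The arrays came from 4 groups of 4, namely white fat of the adipose-specific receptor knockout (AdipoKO_WAT), white fat of controls (CTL_WAT), brown fat of the knockout (AdipoKO_BAT) and brown fat of controls (CTL_BAT). The series' design text calls the controls wild type. The promoter that drives the deletion, the age of the mice and the location of the white depot are not given in the sources used here. Values are Agilent 1-colour signals on the log2 scale relative to each array's 75th percentile, so that 0 is a signal at that percentile.

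Several arrays of a group were nearly identical. Those whose differences stayed under the spot error assigned by the scanner software were merged, which left knockout arrays 2, 3 and 4 of each tissue as 1 sample beside array 1. The white controls formed 2 samples (arrays 1 and 4, arrays 2 and 3), and the brown controls formed 3 (array 1, arrays 2 and 3, array 4). Differences and standard errors below are over these 9 samples.

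The labels were checked first. Nr3c1, which encodes the receptor, lay between 1.23 and 1.5 on white knockout arrays and between 2.01 and 2.43 on white control arrays. It lay between 1.5 and 1.75 on brown knockout arrays and between 2.29 and 2.63 on brown control arrays. On this probe, the brightest of 4, knockout arrays were below control arrays in both tissues, although the limma test over all genes did not call the difference (adjusted p = 0.413 in white and 0.614 in brown fat). The same held for the other 3 probes in brown fat and for 2 of them in white fat, while the third overlapped there, with a white difference of -0.24. Whether these probes lie in the deleted part of the gene was not analysed here. Ucp1, the uncoupling protein that defines brown adipocytes, was at 5.63 and 5.80 in the brown knockout samples, against 6.53, -0.83 and 8.08 in the brown control samples. The low value belonged to control arrays 2 and 3, close to the white samples (-2.52 and -0.99 in knockout, -1.68 and -1.88 in control), so that on these arrays the defining marker of brown fat was near its level in white fat. Skeletal muscle markers were high in every brown sample, with list medians of 8.0 and 7.01 in knockout and 8.15, 8.57 and 8.04 in control.

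As background, neurons package peptides and transmitters into vesicles that move along a cytoskeleton rich in neurofilaments and fuse with the membrane when calcium enters through voltage-gated channels. Fat holds almost no neuronal cell bodies, but sympathetic axons run through it, and pieces of nerve, ganglion or lymph node can be dissected with it. Several genes first described in neurons are also used by endocrine or blood cells. Pacsin1, for example, is known from plasmacytoid dendritic cells as well as from synapses. In tissue RNA, fewer cells of a type and less RNA per cell cannot be told apart.

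The genes lie on 7 chromosomes, and their start regions had no common letter pattern among those searched. RefSeq sequences of the GRCm38.p6 build, from 250 bases before to 50 bases after an annotated start, were matched for 7 of the 10 genes, with 9 starts. On the brightest probe, Nsg2 and Pacsin1 were higher on every knockout array of both tissues, and Cacna1b and Grpr in white fat alone. The sequences of these genes are shown. They lie at chr11:32000450-32000749 on the + strand (the downstream one of 2 starts of Nsg2), chr17:27684989-27685288 on the + strand, chr2:24763103-24763402 on the - strand and chrX:163549687-163549986 on the - strand. Capitals mark the only match found.
Nsg2: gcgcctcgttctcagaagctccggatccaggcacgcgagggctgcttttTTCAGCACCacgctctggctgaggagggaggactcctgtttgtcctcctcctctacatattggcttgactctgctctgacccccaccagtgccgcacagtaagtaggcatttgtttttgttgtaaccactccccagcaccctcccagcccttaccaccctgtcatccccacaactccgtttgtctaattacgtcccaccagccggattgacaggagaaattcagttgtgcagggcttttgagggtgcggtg
Pacsin1: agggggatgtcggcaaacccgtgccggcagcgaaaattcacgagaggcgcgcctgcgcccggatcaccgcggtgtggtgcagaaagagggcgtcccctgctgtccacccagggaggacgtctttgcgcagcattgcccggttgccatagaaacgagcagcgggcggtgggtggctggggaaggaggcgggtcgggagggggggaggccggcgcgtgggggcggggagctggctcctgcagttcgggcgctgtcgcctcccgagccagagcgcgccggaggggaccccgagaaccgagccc
Cacna1b: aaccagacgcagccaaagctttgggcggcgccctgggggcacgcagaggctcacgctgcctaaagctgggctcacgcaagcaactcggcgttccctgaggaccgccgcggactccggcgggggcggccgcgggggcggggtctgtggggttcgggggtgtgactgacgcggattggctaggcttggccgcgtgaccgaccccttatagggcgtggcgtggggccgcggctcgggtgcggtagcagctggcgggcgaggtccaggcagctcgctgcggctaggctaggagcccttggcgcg
Grpr: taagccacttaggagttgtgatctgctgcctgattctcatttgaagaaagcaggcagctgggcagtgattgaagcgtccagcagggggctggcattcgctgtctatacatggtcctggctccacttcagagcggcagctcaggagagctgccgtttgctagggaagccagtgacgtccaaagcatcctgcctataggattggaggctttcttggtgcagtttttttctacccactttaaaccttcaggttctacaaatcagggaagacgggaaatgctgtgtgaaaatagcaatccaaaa

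The capitals in the Nsg2 sequence spell TTCAGCACC, the left part of the RE1 element, which is bound by the repressor REST in cells outside the nervous system. It occurred in 1 of the 9 member sequences, and 122 of all 32851 sequences in the table (0.371%) hold it on either strand. The longer RE1 pattern, this part followed after any 2 bases by GGACAG, was in none of the 9 and in 4 of all sequences. The half-site of the glucocorticoid receptor, AGAACA, was in none of the 9 and in 19.0% of all. The receptor's palindrome, AGAACA and TGTTCT with any 3 bases between, was in none of the 9 and in 3 of all, and TATAAA was in none of the 9 and in 13.6% of all. These letters are merely absent from windows of 300 bases. Base composition varied widely. Cacna1b and Pacsin1 had 35 and 33 CpG pairs, while the upstream start of Cpne4 had 14, the downstream start of Cpne4 had 1 and Astn1 had 2. The median of the 9 was 10, against 7 over all sequences.

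In white fat every knockout array lay above every control array for all 10 genes. This separation was found for 1674 of 15469 genes (10.8%), and for the members it follows from their selection. The median difference of the members was 3.63 on the log2 scale, against -0.04 over all genes. It was 3.56 with the 2 genes that were not well above background in controls set at their bound. The members held ranks 1 to 91 among all genes ordered by the measured white difference, with Cpne4, which was not well above background in white controls, at rank 1. In brown fat 6 of the 10 genes were above on every array, against 11.2% of all genes, with a median difference of 2.48, against -0.13 over all genes. Without the brown control sample with low Ucp1, the median was 2.34 and the count was again 6. The brown median was 3.22 without brown knockout sample 1 and 1.59 without the other brown knockout sample.

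**Figure D1:**
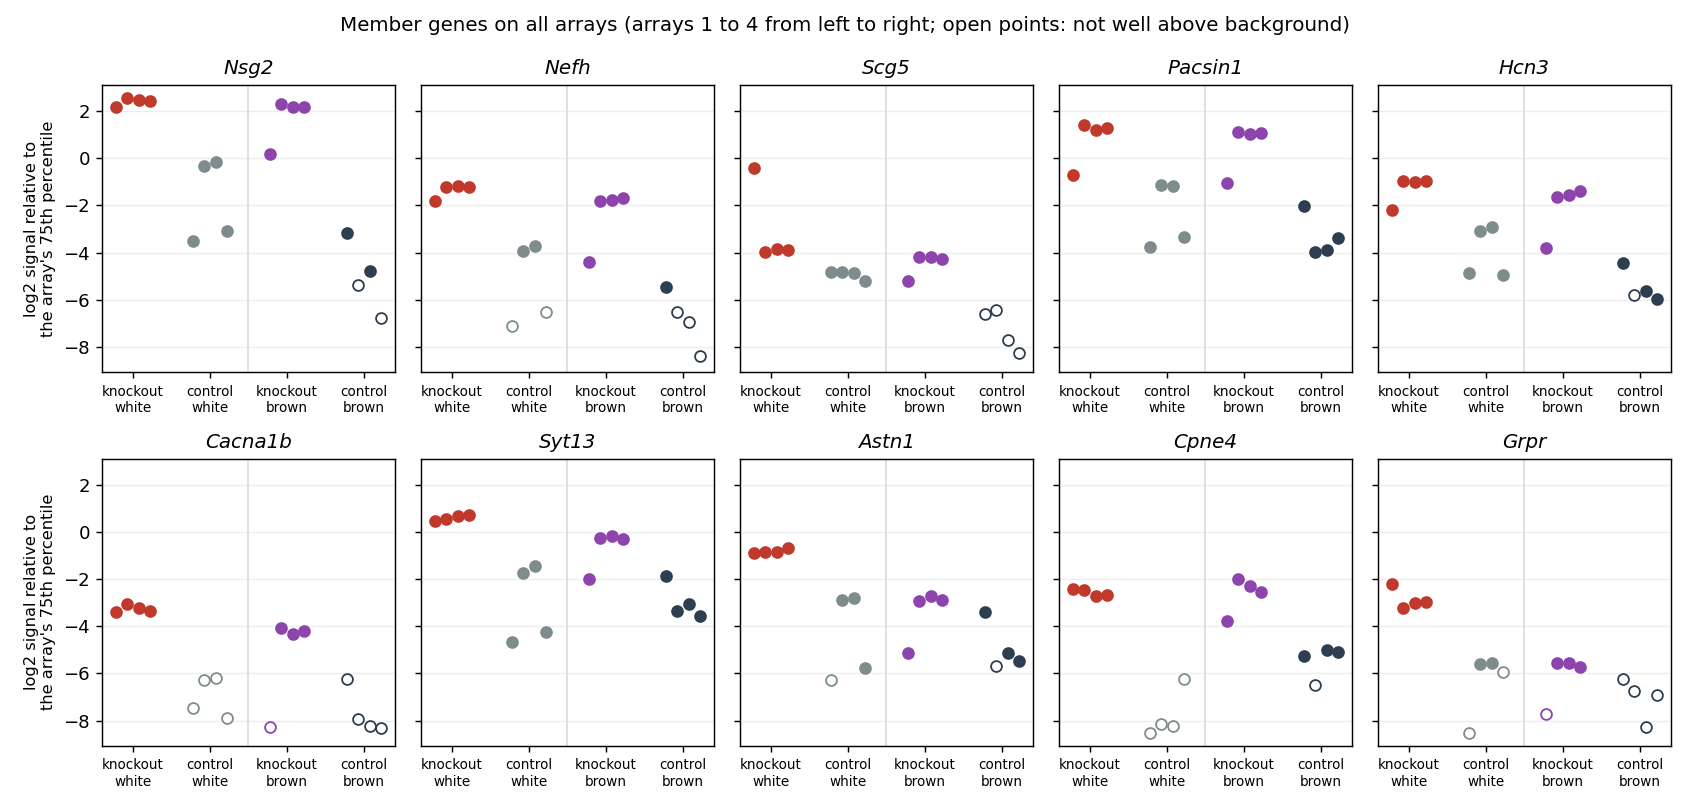
Signal of the 10 member genes (brightest probe) on each of the 16 arrays, as log2 relative to the array's 75th percentile on the y axis, with knockout left of control within each tissue. Filled points were well above background and open points were not. The 4 white knockout arrays lie above the 4 white control arrays in all panels, and brown knockout array 1 lies below the other brown knockout arrays in all panels.

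The limma fit across all genes on the 9 samples called 0 of 15469 genes in white knockout fat (0%) and 0 in brown knockout fat (0%), with 1553 and 1097 genes at an unadjusted p under 0.05. When the 16 arrays were entered as separate samples, 19.0% of genes were called higher in white knockout and 12.6% in brown knockout fat. That fit counts near-identical arrays as replicates, and no call of a member is read from either fit, since these contrasts chose the genes.

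Nsg2, Pacsin1, Syt13 and Cpne4 act in vesicle and membrane trafficking. Nsg2, an endosomal protein of neurons that takes part in receptor recycling, had 2.15, 2.56, 2.47 and 2.44 on white knockout arrays 1 to 4, against -3.52, -0.31, -0.16 and -3.10 on white control arrays. Brown knockout arrays had 0.18, 2.32, 2.16 and 2.20, against -3.18, -5.39, -4.78 and -6.79 on brown control arrays. No array of one genotype reached the other in either tissue. The differences were 4.09 ± 1.39 (SE) in white fat, or 17.0-fold, and 6.22 ± 1.27 in brown fat, or 74.5-fold. Brown control arrays 2 and 4 were not well above background, so the size of the brown fold is uncertain. With another background correction (normexp) the brown difference was 3.66. By measured difference Nsg2 ranked 1 of 15469 genes in brown fat and 3 in white fat. White control arrays 2 and 3 averaged 3.07 log2 units above arrays 1 and 4.

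Pacsin1, which bends membranes and recruits dynamin during endocytosis, had -0.70, 1.41, 1.19 and 1.26 on white knockout arrays, against -3.76, -1.12, -1.19 and -3.36 on white control arrays. On brown knockout arrays it was at -1.05, 1.14, 1.05 and 1.08, against -2.01, -3.97, -3.87 and -3.37 on brown control arrays. Array 1 of each knockout group sat low and came within 1 log2 unit of the nearest control array. White fat differed by 2.65 ± 1.15 (SE) and brown fat by 3.12 ± 1.05. Its other 2 probes differed in the same direction, by 2.85 and 1.53 in white fat and by 2.94 and 1.06 in brown fat. On the dimmer of these, brown knockout array 1 (-4.53) lay below brown control arrays 1 (-4.08) and 2 (-3.81).

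Syt13, an atypical synaptotagmin that does not bind calcium, had 0.47, 0.55, 0.70 and 0.71 on white knockout arrays, against -4.65, -1.72, -1.44 and -4.24 on white control arrays. Its brown knockout values were -2.0, -0.23, -0.16 and -0.28, against -1.85, -3.35, -3.06 and -3.55 on brown control arrays. Brown knockout array 1 and brown control array 1 overlapped. Knockout minus control came to 3.58 ± 1.03 (SE) in white fat and 1.76 ± 0.94 in brown fat. The second Syt13 probe did not follow. It averaged -4.65 in white knockout and -4.12 in white control samples, and -3.69 in brown knockout and -3.98 in brown control samples. The difference of this gene was thus seen with 1 of its 2 probes.

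Cpne4, a copine that binds phospholipids in the presence of calcium, was at -2.44, -2.46, -2.71 and -2.68 on white knockout arrays, against -8.50, -8.13, -8.23 and -6.23 on white control arrays, none of which was well above background. The signal was at least 11.7-fold higher in white knockout fat, with group means of -2.53 and -7.77. This bound lies below the measured white folds of Nsg2 (17.0), Nefh (14.0) and Grpr (13.7). Those of Nefh and Grpr are themselves uncertain, with only 2 white control arrays of each well above background. Brown fat gave -3.77, -1.98, -2.30 and -2.54 on knockout arrays, against -5.24, -6.48, -5.01 and -5.09 on control arrays. The brown difference was 2.34 ± 0.48 (SE), and the arrays did not overlap. The second Cpne4 probe averaged -2.49 in white knockout and -7.70 in white control samples, and -4.04 in brown knockout and -6.93 in brown control samples. It was not well above background on any control array of either tissue, so the size of its difference is not known.

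Nefh, the heavy neurofilament chain of large axons, had -1.81, -1.21, -1.20 and -1.23 on white knockout arrays, against -7.13, -3.92, -3.70 and -6.52 on white control arrays. For brown fat the values were -4.38, -1.83, -1.77 and -1.69 on knockout arrays, against -5.46, -6.52, -6.96 and -8.39 on control arrays. The genotypes did not overlap in either tissue. This gave 3.81 ± 1.34 (SE) for white and 3.79 ± 1.22 for brown fat. The second probe differed by 1.59 in white and 0.62 in brown fat, and in brown fat its knockout and control arrays overlapped. Only 2 white control arrays (2 and 3) and 1 brown control array (1) showed the gene well above background.

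Scg5, the chaperone 7B2 of the prohormone convertase PC2, was uneven within the white knockout. It had -0.41, -3.98, -3.87 and -3.88 on white knockout arrays, against -4.82, -4.81, -4.89 and -5.20 on white control arrays. Array 1 was 3.5 above the sample formed by arrays 2, 3 and 4, the reverse of Pacsin1 and Hcn3. In brown fat it had -5.19, -4.17, -4.17 and -4.29 on knockout arrays, against -6.62, -6.44, -7.72 and -8.24 on control arrays. No brown control array was well above background, and the signal was at least 2.42-fold higher in brown knockout fat (means of -4.70 and -7.31). The white difference was 2.77 ± 1.08 (SE), with 1.02 when white knockout sample 1 was left out and 4.53 when the other was.

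The ion channel genes differed from each other in brown fat. Hcn3, a channel that opens on hyperpolarisation and carries pacemaker current, had -2.21, -0.97, -1.01 and -0.97 on white knockout arrays, against -4.86, -3.09, -2.91 and -4.95 on white control arrays. Brown knockout arrays stood at -3.79, -1.62, -1.57 and -1.39, against -4.43, -5.80, -5.63 and -5.96 on brown control arrays. Both tissues showed no overlap, with differences of 2.36 ± 0.97 (SE) in white and 2.71 ± 0.89 in brown fat.

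Cacna1b, the pore subunit of the N-type calcium channel that triggers transmitter release, had -3.39, -3.06, -3.23 and -3.34 on white knockout arrays, against -7.47, -6.26, -6.18 and -7.91 on white control arrays. No control array of either tissue was well above background for this gene. Its signal was at least 6.83-fold higher in white knockout fat, with means of -3.30 and -6.95. In brown fat it had -8.29, -4.09, -4.33 and -4.22 on knockout arrays, against -6.26, -7.94, -8.24 and -8.32 on control arrays. Brown knockout array 1 was at the control level and not well above background, whereas the other 3 arrays of its group were above it. No fold is given for brown fat, because both group means lay near or under the detection limit.

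Astn1, a neuronal membrane protein used in migration along glia, had -0.87, -0.87, -0.84 and -0.69 on white knockout arrays, against -6.28, -2.88, -2.81 and -5.78 on white control arrays. The brown knockout arrays read -5.15, -2.93, -2.71 and -2.88, against -3.41, -5.69, -5.14 and -5.47 on brown control arrays. The brown groups overlapped at array 1 of both genotypes. The log2 difference was 3.60 ± 1.23 (SE) for white fat and 0.77 ± 1.12 for brown fat. Its second probe differed by only 0.50 in white fat, where every knockout array was above every control array. In brown fat the second probe differed by -0.81. A white difference of the size given was thus seen with 1 of 2 probes.

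Grpr, the receptor of gastrin-releasing peptide, had -2.20, -3.20, -2.99 and -2.96 on white knockout arrays, against -8.51, -5.60, -5.57 and -5.93 on white control arrays. On brown arrays it read -7.71, -5.58, -5.54 and -5.73 in knockout, against -6.23, -6.76, -8.26 and -6.92 in control. White fat showed no overlap and a difference of 3.78 ± 0.83 (SE), but only white control arrays 2 and 3 were well above background. The brown difference was 0.23 ± 0.76, no brown control array was well above background, and 3 of the 4 brown knockout arrays stood above the brown controls. Without the brown control sample with low Ucp1, it was -0.08.

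**Figure D2:**
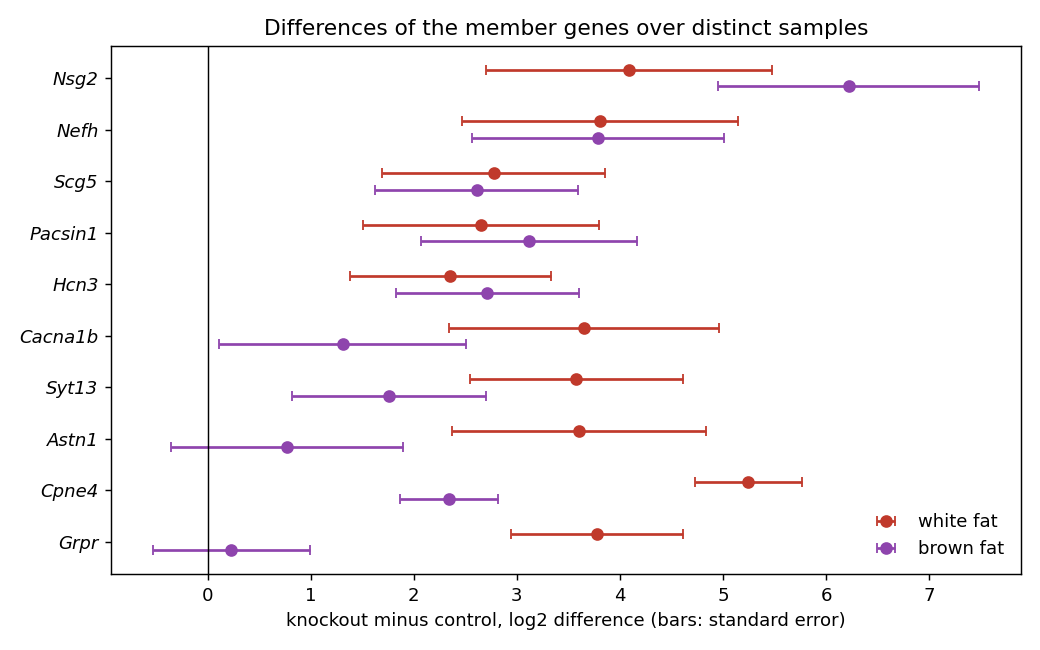
Knockout minus control difference of each member gene on the log2 scale (x axis) in white fat, drawn above, and brown fat, drawn below, with the standard error over distinct samples as bars. White differences run from 2.36 for Hcn3 to 5.25 for Cpne4, and brown ones from 0.23 for Grpr to 6.22 for Nsg2, but controls were not well above background for Cpne4 and Cacna1b in white and for Scg5, Cacna1b and Grpr in brown fat.

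Measured knockout differences were smaller in brown than in white fat for Grpr, Cpne4, Astn1, Cacna1b and Syt13, larger in brown fat for Nsg2, and within 0.5 of each other for the rest. The brown minus white difference of the knockout effects was -0.02 ± 1.81 (SE) for Nefh, -0.16 ± 1.46 for Scg5, 0.36 ± 1.32 for Hcn3 and 0.47 ± 1.55 for Pacsin1. It was -3.55 ± 1.13 for Grpr, -2.91 ± 0.71 for Cpne4, -2.83 ± 1.67 for Astn1, -2.34 ± 1.78 for Cacna1b and -1.82 ± 1.40 for Syt13, and 2.13 ± 1.88 for Nsg2. All but those of Grpr and Cpne4 lay within 2 SE of 0. The sizes for Cpne4, Cacna1b, Grpr and Scg5 rest on control signals not well above background, and those for Nsg2 and Nefh partly do. White Cpne4 at its bound would bring its value nearer to 0. These values come from the contrasts that chose the genes and were not tested. Their standard errors treat the tissues as separate, although same-numbered brown and white knockout arrays deviated together over genes with a value on every array (r between 0.29 and 0.57). Across the knockout groups themselves, all 4 brown arrays were below all 4 white arrays for Scg5, Cacna1b, Syt13, Astn1 and Grpr, and the arrays overlapped for the other 5 genes. The share of all genes with such a separation was not counted, so nothing particular to the members is read from it.

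**Figure D3:**
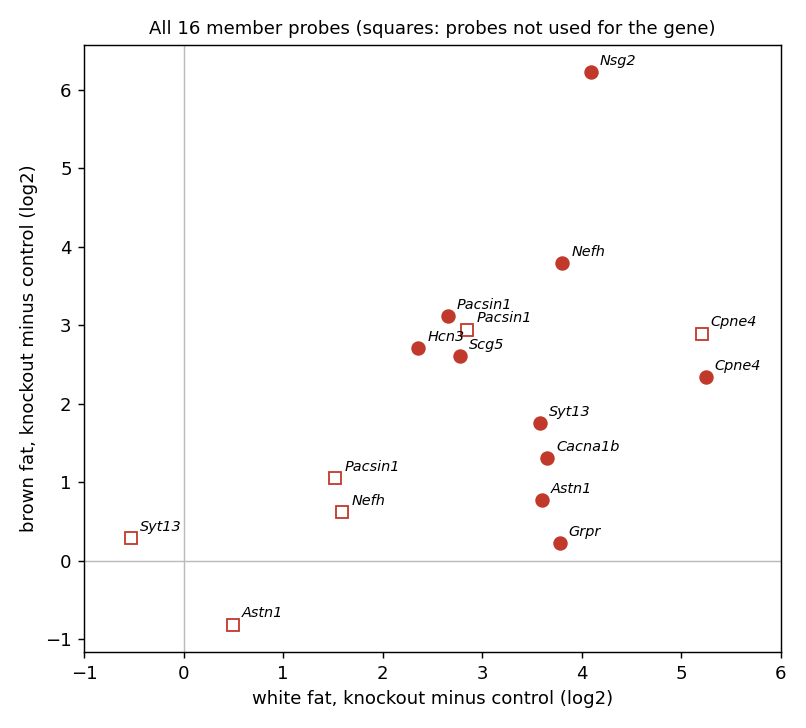
Knockout minus control log2 difference in white fat (x axis) and brown fat (y axis) of all 16 probes of the member genes, with circles for the probe that stands for the gene and squares for its other probes. The second probes of Syt13 and Astn1 lie near 0 in white fat at -0.53 and 0.50, while both Cpne4 probes lie beyond 5 in white fat, where neither was well above background in controls.

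The comparison of brown with white fat in control mice was not itself used to choose the genes. It is not independent of that choice, because the control arrays also entered the knockout differences. A low white control signal, as for Cpne4, raises both the white knockout difference and the brown minus white difference. White and brown control arrays also shared no slide. The limma fit called 785 of 15469 genes (5.07%) and 1 of the 10 members. Cpne4 was higher in brown control fat by 2.41 ± 0.48 (SE, adjusted p = 0.0361), with 3 of 4 brown control arrays well above background, against none in white. As the white signal was not well above background, this is at least 1.64-fold. The call was lost when any 1 of the 5 control samples was left out (adjusted p between 0.0875 and 0.277), also the one with low Ucp1, and when the gene's 2 probes were averaged (adjusted p = 0.152). Brown control array 2 and white control array 4 overlapped.

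Of the other 9 members, Nsg2 differed by -3.25 ± 1.27 (brown minus white, SE, limma adjusted p = 0.188) and Scg5 by -2.38 ± 0.99 (adjusted p = 0.210). For Scg5 every brown control array was below every white one. The remaining 7 differed by between -1.55 and 0.15, with standard errors between 0.76 and 1.22 and limma adjusted p-values of 0.385 or more.

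Relatives and partners of the members varied in direction. None of the genes on the 14 neuronal lists was called by limma in either tissue on the 9 samples. Several had control arrays not well above background, so the sizes of their differences are uncertain. Among neurofilament genes, Nefl and Nefm, which co-assemble with Nefh, were not well above background on all arrays of any group and could not be tested. Prph, the peripheral neuron filament, was at 0.71 in white knockout sample 1 and -5.51 in the other white knockout sample, against -3.64 and -5.23 in white controls. Of 8 other granins and prohormone enzymes tested, 6 had higher means in white knockout fat (median difference 0.93), and 3 in brown (median -0.43). Pcsk2, the convertase that Scg5 assists, differed by 1.25 ± 0.68 (SE) in white and 0.40 ± 0.62 in brown fat. Pcsk1, another convertase, differed by 1.70 ± 1.61 and 2.12 ± 1.47, and its inhibitor Pcsk1n by 1.78 ± 1.16 and -1.23 ± 1.06. Chgb, a core granin of secretory granules, was at 1.75 and -5.71 in the white knockout samples, against -3.44 and -4.01 in white controls.

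Of 8 other synaptotagmins, 5 had higher means in white knockout fat (median 0.13) and 2 in brown (median -0.33). Syt1, the fast calcium sensor of synapses, was at -0.61 and -2.92 in the white knockout samples, against -6.06 and -5.10 in white controls, a difference of 3.81 ± 1.31 (SE). Only 2 white control arrays were well above background for it. In brown fat it differed by 0.87 ± 1.20. Syt12 ran the other way in white fat, at -0.28 and -0.33 in knockout, against 1.20 and 0.90 in control. Syt3, Syt7, Syt10, Syt11, Syt15 and Syt16 differed by between -0.68 and 0.90 in white and between -1.11 and 0.18 in brown fat. Of 18 vesicle release genes, 11 had higher means in white and 8 in brown knockout fat, with medians of 0.17 and -0.13. The largest differences were those of Slc17a6, a glutamate transporter of vesicles (0.18 ± 0.72 in white, 2.14 ± 0.66 in brown fat), Sv2a (0.95 ± 1.13 and 1.73 ± 1.04) and Unc13a, a vesicle priming factor (1.63 ± 0.58 and 0.59 ± 0.53). Slc17a6 and Sv2a were each well above background on 1 brown control array, and Unc13a on none.

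Of 9 genes of vesicle endocytosis, 6 had higher means in white and 4 in brown knockout fat, with medians of 0.40 and -0.30. Snap91, a clathrin adaptor of nerve terminals, differed by 3.45 ± 1.30 (SE) in white and 1.26 ± 1.19 in brown fat, Dnajc6 by 1.82 ± 0.82 and 2.03 ± 0.75, and Amph by 1.77 ± 0.56 and 0.45 ± 0.51. Among the relatives of Pacsin1, Pacsin2 differed by -0.58 ± 0.28 in white and -0.34 ± 0.26 in brown fat, and Pacsin3 by -0.46 ± 0.78 and -0.86 ± 0.71. The relatives of Nsg2 had differences of 0.10 ± 0.52 (Nsg1) and 1.17 ± 0.70 (Caly) in white fat, and -0.50 ± 0.48 and -0.05 ± 0.64 in brown fat.

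Among pacemaker channels, Hcn4 differed by 1.29 ± 0.56 (SE) in white and 0.05 ± 0.52 in brown fat, and Hcn2 by 0.13 ± 0.37 and -0.32 ± 0.34. Of 13 other calcium channel subunits, 10 had higher means in white and 6 in brown knockout fat, with medians of 0.60 and -0.07. Cacnb3, an auxiliary subunit, was at 0.90 and 2.63 in white knockout, against -0.27 and 0.78 in white control samples, and at -0.92 and 1.55 in brown knockout, against -1.59, -1.29 and -1.83 in brown control samples. Cacna2d3 differed by 2.74 ± 0.84 in white and 0.77 ± 0.77 in brown fat, and Cacna1h, a T-type channel, by 2.19 ± 0.75 and 0.08 ± 0.69. Cacna1s, the channel of skeletal muscle, differed by 2.09 ± 1.04 and -1.05 ± 0.95. Cacna1a, the pore of the P/Q-type channel and nearest partner of Cacna1b at synapses, differed by -0.79 ± 0.45 and -0.19 ± 0.41.

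Of 7 other copines, 3 had higher means in white and 4 in brown knockout fat. Cpne5 differed by 1.33 ± 0.81 (SE) in white and 0.75 ± 0.74 in brown fat, Cpne8 by -0.81 ± 0.30 and -0.15 ± 0.27, and Cpne7 by 0.37 ± 0.45 and 0.80 ± 0.41. Cpne1, Cpne2, Cpne3 and Cpne9 stayed between -0.37 and 0.37 in white and between -0.18 and 0.04 in brown fat. Of 6 genes of neuronal migration, 3 had higher means in each tissue. Lrp8, a reelin receptor, was at -4.32 and -2.12 in white knockout, against -6.14 and -4.78 in white control samples, and at -4.49 and -2.42 in brown knockout, against -5.76, -6.77 and -5.95 in brown control samples. It was well above background on 2 white control arrays and on no brown control array. Cdk5r1 differed by 1.65 ± 0.52 in white and 0.73 ± 0.48 in brown fat, and Vldlr, the other reelin receptor, by -0.98 ± 0.56 and -0.58 ± 0.51. Grp, the ligand of Grpr, was well above background on 1 white knockout and 1 white control array and could not be tested. Nmb, a related peptide, differed by 0.60 ± 0.26 in white and 0.54 ± 0.24 in brown fat.

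General markers of neurons had another pattern than the members. Of 15 pan-neuronal genes tested, 13 had higher means in white and 6 in brown knockout fat, with medians of 1.07 and -0.18. The white knockout samples differed from each other. The list median was 0.48 in white knockout sample 1 and -3.64 in the other, against -2.52 and -2.65 in white controls. Elavl4, a neuronal RNA-binding protein, was at 1.28 and -4.74 in white knockout, against -3.87 and -4.54 in white control samples. The summed linear signal of the list was 37.7 and 18.4 times the 75th percentile in white knockout, against 21.9 and 19.2 in white control samples. In brown fat it was 31.3 and 21.0 in knockout, against 35.8, 44.7 and 34.3 in control samples. Rbfox1 had the largest difference of the list, 3.02 ± 0.59 (SE) in white and -0.86 ± 0.53 in brown fat. Rbfox1 was well above background on only 1 white control array. It was followed by Elavl4 and by Celf4, at 2.05 ± 0.63 in white and 1.07 ± 0.57 in brown fat. Both white knockout samples were above both white controls for Rbfox1, at -2.70 and -3.64 in knockout, against -6.53 and -5.86 in control, and for Celf4, at 0.83 and -0.48, against -1.92 and -1.83. These genes, Tubb3 and Eno2 were the 4 of 15 for which every white knockout array lay above every white control array.

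Of 31 neuronal list genes on the array that failed the detection filter, 22 were well above background on white knockout array 1. Between 3 and 4 were so on the other white knockout arrays, between 1 and 9 on white control arrays, between 3 and 6 on brown knockout arrays and between 2 and 6 on brown control arrays. Snap25, Gap43, Nefl, Nefm and Scg2 were each detected on that 1 white knockout array and on no other of its group. Elsewhere Nefl was detected on 2 white control arrays, Scg2 on 1 white control array and Nefm on 1 brown knockout array. Of 13 sympathetic neuron genes tested, 11 had higher means in white and 6 in brown knockout fat, with medians of 0.81 and -0.37. Their list median was -2.65 in white knockout sample 1 and -4.40 in the other, against -4.18 and -3.68 in white controls. Ddc, which makes dopamine, was at -0.99 and -2.51 in white knockout, against -4.49 and -3.72 in white control samples.

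Markers of lymphoid tissue were high in other samples than the pan-neuronal genes. The median of 17 T and NK cell markers was -2.03 and 2.32 in white knockout, against -2.47 and -0.11 in white control samples, and 0.20 and 1.81 in brown knockout, against -2.31, -2.74 and -4.02 in brown control samples. Of these markers, 16 had higher means in white and 15 in brown knockout fat, and 0 were called on the 9 samples (0 and 12 at an unadjusted limma p under 0.05). The 6 B and plasma cell markers had medians of 0.55 and 4.29 in white knockout, against -0.96 and 1.92 in white control samples, and 1.35 and 2.56 in brown knockout, against 0.98, -2.42 and -3.56 in brown control samples. The 10 markers of lymph node stroma had medians of -2.57 and 1.77 in white knockout, against -3.41 and -0.58 in white control samples, and -1.72 and 1.56 in brown knockout, against 0.03, -4.68 and -4.78 in brown control samples. Their summed linear signal was 25.4 and 343 in white knockout, against 15.4 and 69.2 in white control samples, and 18.7 and 190 in brown knockout, against 16.1, 3.79 and 2.70 in brown control samples.

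The median over the members was -1.34 and -1.10 in the 2 white knockout samples, while the pan-neuronal median was high in the first and the lymphoid medians in the second. Single members differed more between these samples (first minus second), by 3.5 for Scg5, -1.98 for Pacsin1 and -1.23 for Hcn3. Plasmacytoid dendritic cell markers, a list kept beside Pacsin1, were at -1.05 and 1.57 in white knockout, against -1.86 and 0.06 in white control samples. In brown fat they were at -0.56 and 0.52 in knockout, against -1.01, -1.24 and -2.47 in control samples. Adipocyte markers were at 6.04 and 4.67 in white knockout, against 6.94 and 6.55 in white control samples, and at 6.01 and 5.72 in brown knockout, against 6.35, 6.18 and 6.61 in brown control samples. The part of nerve, ganglion or lymphoid tissue in the signal of the members was not tested.

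**Figure D4:**
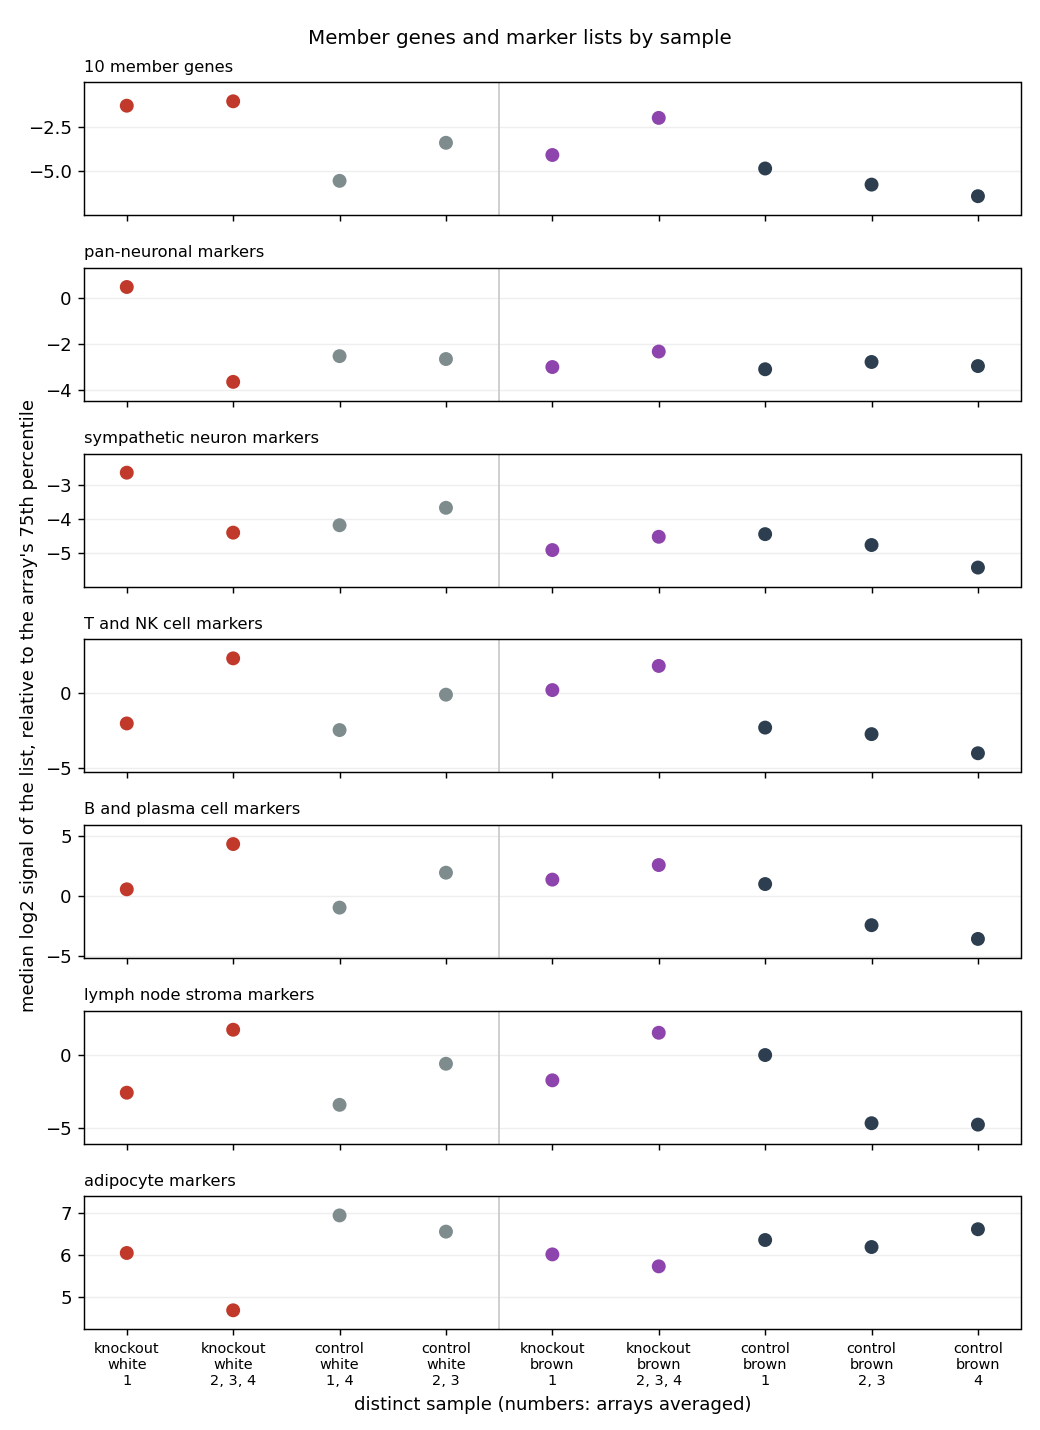
Median log2 signal (y axis, relative to the array's 75th percentile) of the 10 member genes and of 6 marker lists in each of the 9 distinct samples on the x axis, with knockout left of control within each tissue. The median over the members is -1.34 and -1.10 in the 2 white knockout samples, although single members differ by up to 3.5, while pan-neuronal markers are at 0.48 and -3.64 and T and NK cell markers at -2.03 and 2.32.

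Spread within groups followed the same samples. Brown knockout sample 1 was below the other brown knockout sample for all 10 members, with log2 differences from -4.07 for Cacna1b to -0.98 for Scg5. White control arrays 2 and 3 were above arrays 1 and 4 for 9 members, by up to 3.18 for Astn1, with Cpne4 as the exception at -0.82. White knockout sample 1 was below the other white knockout sample for 7 members, with Scg5, Grpr and Cpne4 above.

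Profiles over the 9 samples were compared by Pearson correlation, as a description. These 9 points share genotype and tissue and hence are not independent of the choice. Nefh and Hcn3 were most alike (r = 0.98), Nsg2 was nearest to Nefh (0.98), Pacsin1 to Hcn3 (0.96), Cacna1b to Astn1 (0.95), Syt13 to Astn1 (0.95) and Grpr to Astn1 (0.94). Scg5 was nearest to Nsg2 (0.83) and Cpne4 to Syt13 (0.73), the lowest of these values. The mean member profile correlated at 0.72 with the T and NK cell list, 0.81 with the B and plasma cell list, 0.59 with the sympathetic neuron list, 0.40 with the pan-neuronal list and -0.75 with the adipocyte list. Pacsin1 had 0.90 with the T and NK cell list and 0.07 with the pan-neuronal list, while Scg5 had 0.42 and 0.74, and 0.86 with the sympathetic neuron list.

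Outside the members, the genes most like their mean profile were Zcchc18 (r = 0.97), 2700099C18Rik (0.97), Nt5e, the ectonucleotidase CD73 (0.97), Gpr162, an orphan receptor (0.96), Foxp1, a transcription factor of lymphocytes and neurons (0.96), and Ccdc82 (0.96). Zcchc18 differed by 3.17 in white and 2.62 in brown fat, and Nt5e by 2.26 and 1.64. The repressor Rest, which silences many neuronal genes elsewhere, was at -0.57 and 0.44 in white knockout, against -0.43 and -0.33 in white control samples, a difference of 0.32 ± 0.39 (SE), and differed by 0.13 ± 0.36 in brown fat. Its partners Rcor1 and Sin3a differed by 0.83 ± 0.28 and 0.59 ± 0.23 in white fat and by 0.30 ± 0.26 and 0.47 ± 0.21 in brown fat, and Hdac2 by -0.51 ± 0.29 and -0.18 ± 0.26.

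Slide and genotype were partly separable within each tissue, since each tissue had 1 slide with both genotypes. White and brown control arrays shared no slide, so in their direct comparison tissue and slide cannot be told apart. On the shared slide of white fat, all 10 members were higher on both knockout arrays than on both control arrays, with a median difference of 3.39. On the shared slide of brown fat 7 of 10 were, with a median of 2.64, and the exceptions were Cacna1b, Astn1 and Grpr. The share of all genes with this separation was not counted, and these contrasts chose the members. A part of the slide in the differences was not tested.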

How the data were processed

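The deposited data were 1-colour Agilent arrays of total RNA. Per the file headers, Agilent Feature Extraction (version 12.0.0.7) produced linear, background-subtracted spot intensities, and the authors' deposited value table held the mean of these intensities for all 41174 probes (relative tolerance 0.0001). Intensities were turned into log2 values minus the 75th percentile of each array (values not scaled by the authors, per the file headers). Outlier and control spots were left out. RefSeq accessions named 28223 probes as 19096 genes, and 12951 stayed unnamed. The array's build differs from the reference, so no probe position is given. A probe was kept if well above background on all 4 arrays of a group, and the brightest such probe stood for its gene (15469 genes). Each array had 43379 non-control spots, of which 67.3% to 77.0% were well above background, and 0 saturated spots. Precision is limited by how many distinct samples there are, not by how many arrays.

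Array pairs of a group whose difference divided by the scanner error had a median absolute deviation under 1 were averaged as 1 sample (ratios 0.371 to 0.655, other pairs at least 1.24). The labels call the arrays biological replicates, but p-values measure only the spread between these samples. The test was limma (3.58.1, under R 4.3.3, with 4 group means, 5 residual degrees of freedom and Benjamini-Hochberg threshold 0.05). The fit was run on simulated data with independent noise and a spread capped below that of the members. That run does not show how the fit behaves on these samples. A group with no array well above background has only a bound: "at least" sets the brighter mean against, per array, the larger of the dim signal and the weakest detected signal, averaged. Figures and motif searches used Python 3.11.15.

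Same-numbered knockout and control arrays did not deviate together (r between -0.52 and 0.41 for white, between -0.54 and -0.04 for brown fat), nor did brown and white controls (-0.13 to 0.18). Same-numbered brown and white knockout arrays did (0.29 to 0.57), although array 1 against the merged arrays 2, 3 and 4 is a single contrast in each tissue. No test was made between these groups. Members, lists and tests were chosen with earlier results of these data known. Genes named are the members, Nr3c1, up to 3 genes of each list with the largest knockout differences, relatives of the members and the 6 genes most like the members, with 1 list gene not reported here; Ucp1, Pcsk2 and the genes named only as detected or not were added after their values were seen. Alternatives were other scalings, normexp (on median spot signals, as no mean signal was in the files), no filter, averaged probes, slide blocks and leaving out each sample.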

Additional observations from a re-analysis of the deposited data

Results flagged for a closer look

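Among the 40 groups of 4 arrays formed by the 10 member genes, 16 had an array far from the other 3. The usual rate of about 1 in 20 groups holds for independent arrays. It does not apply here, where each group holds near-identical arrays, and the share over all genes was not counted. The value given is the gap of that array to its nearest neighbour divided by the range of its group, and each lies above Dixon's critical value for 4 samples. In the knockout groups, arrays 2, 3 and 4 differed by less than the scanner error, so a distance from array 1 is there a distance between 2 samples.

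Brown knockout array 1 was low for 9 genes, with 0.927 for Nsg2, 0.949 for Nefh, 0.879 for Scg5, 0.960 for Pacsin1, 0.901 for Hcn3, 0.942 for Cacna1b, 0.935 for Syt13, 0.907 for Astn1 and 0.915 for Grpr. White knockout array 1 was low for Nefh (0.945), Pacsin1 (0.897) and Hcn3 (0.965), and high for Scg5 (0.968). In controls, Cpne4 was high on white array 4 (0.837) and low on brown array 2 (0.847), and Grpr was low on white array 1 (0.878). These 3 control signals include values not well above background.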

How the results depend on the processing

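The median member difference in white fat, 3.63, was 3.43 with the authors' unscaled values, 3.55 with quantile normalization, 2.74 with averaged probes, 3.39 on the shared slide or with the slide as a block, 1.41 with normexp, and between 2.43 and 4.72 when a sample was left out. In brown fat, 2.48 became 0.88 with normexp and between 1.59 and 3.22 when a sample was left out. With unscaled values the median of all genes shifted to -0.23 in white and 0.31 in brown fat. Calls over all genes in white knockout (main count 0) numbered 6908 with 16 separate arrays, 7104 with the replicate block, 194 with the slide as a block and 0 to 1658 when a sample was left out. In brown knockout (main count 0) they numbered 4741, 4965, 1 and 0 to 1. Between control tissues (main count 785) they numbered 6066, 6169, 360 on the slides that held both genotypes of a tissue and 178 to 1741. White and brown control arrays shared none of these slides, so the count of 360 cannot separate tissue from slide. The replicate numbers pair no knockout with control arrays, only brown with white knockout arrays, and the block moved no count of 16 arrays by over 1.5 times. Without brown knockout array 1, 10 members stood above controls on every brown array, otherwise 6 to 7. In white fat all 10 members stood above controls on every array with the main processing, and 9 with averaged probes. The share of all genes was not counted for these alternative settings.

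Some single genes changed sign. In brown knockout, Astn1 was at -0.021 with averaged probes and between -0.38 and 1.93 when a sample was left out, Cacna1b between -0.73 and 3.35 and Grpr between -0.82 and 1.27. Between control tissues, Syt13 was at -0.20 unscaled, -0.046 with normexp and -0.46 on the slides that held both genotypes of a tissue. With the slide as a block Scg5 was at 0.19 and Cacna1b at 0.0065. When a sample was left out, Syt13 ranged from -1.29 to 1.58, Pacsin1 from -1.94 to 0.46, Cacna1b from -1.34 to 0.13, Astn1 from -1.92 to 1.26 and Grpr from -1.30 to 0.34. The Cpne4 call was lost in 11 settings. The white differences of all 10 members stayed positive in every setting run. With normexp they shrank to 1.21 for Cpne4, 1.52 for Nefh, 1.01 for Grpr and 0.79 for Cacna1b. For Cpne4 and Cacna1b this is under the bounds given above, which hold for the main processing only. A setting that left 1 sample in a group assumed that it varies like the others. Causes were not tested. Signals under background limit Cacna1b, Cpne4, Grpr, Nefh and Scg5, and in brown fat also Nsg2.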
